A study of Mus musculus with 6 samples.

Results

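The 8 genes Tcp1, Cct2, Cct3, Cct4, Cct5, Cct6a, Cct7 and Cct8, which encode the subunits of the cytosolic chaperonin CCT (also called TRiC), were taken by symbol from a table of 24255 genes measured by RNA-Seq in mouse fully-grown oocytes (FGOs). All 8 were found, with 1 entry each. The series compared germinal vesicle (GV)-stage FGOs of wild type (WT) mice with those of Lsm14b-knockout (Lsm14b-KO) mice, with 3 libraries per genotype and 20 oocytes in each library. Lsm14b-KO mice were homozygous for a knockout-first allele, Lsm14b tm1a(KOMP)Mbp, which carries a reporter cassette and is present in the whole body on a C57BL/6J background, so follicle cells carried it too. Collection took place 46 h after both genotypes were given 5 IU of PMSG (a hormone that drives follicles to grow), and the age of the females is not given for these libraries in the sources used here. RNA of the 20 oocytes was amplified by Smart-seq2, which copies polyadenylated RNA from few cells, and the deposited values are FPKM, that is, sequenced fragments scaled to transcript length and to all mapped fragments.

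CCT is a barrel of a pair of stacked rings, each built from 8 different but related subunits, in which newly made proteins fold with the energy of ATP. Its best known clients are actin and tubulin, and WD40-repeat proteins such as CDC20, the activator of the anaphase-promoting complex. An FGO stores mRNAs and proteins for the divisions that follow, and its meiotic spindle and cortex are built from tubulin and actin. LSM14B binds RNA, and its family is known for holding mRNAs in cytoplasmic ribonucleoprotein particles. Wherever 3 values of a genotype are given in a row, they stand in the order of replicates 1, 2 and 3.

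Lsm14b, the targeted gene, read 2.77, 3.98 and 1.72 FPKM in the WT libraries. The Lsm14b-KO libraries read 0, 0 and 0.10 FPKM (limma, adjusted p = 0.00380). All 10 oocyte markers reached 1 FPKM, with sums of 13789 to 14872 FPKM in WT and 12124 to 15999 FPKM in Lsm14b-KO libraries. Most of that sum was Ooep and Oosp1, and among the less abundant markers Nobox (log2 fold change 2.25, adjusted p = 0.00640) and Kit (0.84, adjusted p = 0.0441) were called higher. Of 10 cumulus and granulosa cell markers, 3 reached 1 FPKM in some library, and Foxl2, Amh, Inhba and Cyp11a1 were at 0 in all 6. The sum of that list was 9.68 to 13.5 FPKM in WT and 6.13 to 9.96 FPKM in Lsm14b-KO libraries. The lower sum was that of Cyp19a1, at a mean of 10.1 FPKM in WT and 4.75 FPKM in Lsm14b-KO (adjusted p = 0.0426), while Fshr, Inha and Kitl had higher means in Lsm14b-KO (0.85 and 1.94, 0.13 and 0.52, and 0.22 and 0.50 FPKM). The part of these cells in the members' values was not tested. The 5 red blood cell markers were at 0 throughout, and no marker of theca and stroma or of leukocytes reached 1 FPKM. The libraries also differed in depth and scale. The FPKM of all genes summed to 1141324 to 1244182 in WT libraries and to 1029728, 564671 and 676656 in the Lsm14b-KO libraries. The step between the lowest values gave a depth relative to WT replicate 1 of 1.14 and 1.03 in WT replicates 2 and 3 and of 1.33, 1.94 and 2.18 in the Lsm14b-KO libraries, which were the deeper ones by this estimate. No depth is given in the sources used here. These estimates assume that the authors counted whole fragments and scaled each library only to its own mapped fragments.

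The 300-base promoters of the members, from 250 bases before to 50 bases after the transcription start, were read from RefSeq on build GRCm38.p6. There were 9 promoters for 7 genes, with 2 starts for Cct2 and 2 for Cct5 and no entry for Cct4. The GC box GGGCGG, searched like all motifs on both strands, was present in 8 of the 9 promoters and in all 7 genes, and in 35.7% of the 32851 promoters of all genes. CCAAT was present in 4 member promoters, those of Tcp1, Cct3, Cct6a and Cct7, and in 37.4% of all. Heat shock factors bind inverted repeats of GAA: TTCNNGAA was present in 2 member promoters (8.52% of all) and GAANNTTC in 1 (7.86% of all). TATAAA was present in none of the 9, against 13.6% of all. The GC content of the 9 ran from 47.3 to 67.7%, against a median of 52.7% over all promoters. All but the first start of Cct5 lay above that median, and the part of GC content in the matches was not tested. These matches are letters in a window and do not show that a factor binds. The 250 bases before the start are shown for Cct3 and Cct2, the members with the highest and an intermediate level that passed the test, for Cct8, the member with the smallest fitted difference, and for Cct6a and Cct5. All run 5′ to 3′ on the strand of the gene, capitals mark the GC boxes, CCAAT boxes and heat shock elements on either strand, and positions are counted back from −1, the base before the start.

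Cct3, chr3:88296885-88297134, plus strand, with a GC box at -94 and CCAAT boxes at -74 and -33:
Cct3: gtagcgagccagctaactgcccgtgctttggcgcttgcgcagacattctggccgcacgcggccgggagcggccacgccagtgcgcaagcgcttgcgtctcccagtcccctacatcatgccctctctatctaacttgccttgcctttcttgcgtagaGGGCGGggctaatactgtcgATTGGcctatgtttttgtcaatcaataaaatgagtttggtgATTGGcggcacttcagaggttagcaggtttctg
Cct2 first start, chr10:117063853-117064102, minus strand, with GC boxes at -108, -96, -84 and -45:
Cct2, first start: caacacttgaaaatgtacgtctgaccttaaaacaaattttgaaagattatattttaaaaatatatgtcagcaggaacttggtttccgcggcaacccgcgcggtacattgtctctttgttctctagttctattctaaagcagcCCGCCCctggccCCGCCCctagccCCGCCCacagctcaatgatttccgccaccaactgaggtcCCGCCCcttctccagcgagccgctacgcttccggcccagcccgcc
Cct2 second start, chr10:117063376-117063625, minus strand, with GAANNTTC at -42 and GC boxes at -16 and at -4, the last running across the start:
Cct2, second start: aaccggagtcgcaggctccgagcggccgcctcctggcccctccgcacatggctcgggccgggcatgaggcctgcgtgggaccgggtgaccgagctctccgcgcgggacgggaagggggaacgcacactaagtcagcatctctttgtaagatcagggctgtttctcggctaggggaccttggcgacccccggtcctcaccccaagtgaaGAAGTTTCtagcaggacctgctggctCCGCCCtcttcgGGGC
Cct8, chr16:87495870-87496119, minus strand, with 1 GC box at -48:
Cct8: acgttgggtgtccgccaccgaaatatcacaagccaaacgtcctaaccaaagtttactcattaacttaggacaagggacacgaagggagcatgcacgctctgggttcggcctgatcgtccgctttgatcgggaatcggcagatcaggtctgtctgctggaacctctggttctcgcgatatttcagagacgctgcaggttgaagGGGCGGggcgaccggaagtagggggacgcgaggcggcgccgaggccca
Cct6a, chr5:129787106-129787355, plus strand, with GC boxes at -93 and -50 and CCAAT boxes at -59 and -29:
Cct6a: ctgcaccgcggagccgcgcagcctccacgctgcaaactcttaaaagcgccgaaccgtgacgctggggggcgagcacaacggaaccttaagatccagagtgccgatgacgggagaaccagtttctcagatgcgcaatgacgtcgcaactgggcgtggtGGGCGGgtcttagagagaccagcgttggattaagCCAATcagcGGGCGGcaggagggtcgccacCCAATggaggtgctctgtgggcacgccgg
Cct5 first start, chr15:31601847-31602096, minus strand, with a GC box at -240 and TTCNNGAA at -34:
Cct5, first start: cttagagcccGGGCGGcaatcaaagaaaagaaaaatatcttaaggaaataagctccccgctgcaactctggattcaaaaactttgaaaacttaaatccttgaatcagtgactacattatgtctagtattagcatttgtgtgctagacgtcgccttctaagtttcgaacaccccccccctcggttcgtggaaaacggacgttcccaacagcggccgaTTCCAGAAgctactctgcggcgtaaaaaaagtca

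In these windows the called member Cct3 and the uncalled members Tcp1 and Cct7 all hold CCAAT, while the called member Cct2 does not. The called member Cct4 has no promoter entry, and any relation between motifs and calls was not tested. A further TTCNNGAA lies after the start of Cct6a, at 25, outside the stretch shown. The second start of Cct5 had none of the 5 motifs in its 300 bases.

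Transcripts of the CCT subunits were present at unequal levels in WT FGOs. Cct3 came first with a mean of 25.3 ± 3.52 FPKM (SD, n = 3) and Cct8 next with 12.2 ± 1.59 FPKM, and their ranges did not overlap. Cct5, Tcp1 and Cct2 followed at 5.78 ± 2.84, 4.18 ± 0.98 and 2.73 ± 0.62 FPKM (SD, n = 3 each). The ranges of Cct5 and Tcp1 overlapped, as did those of Tcp1 and Cct2. Cct7, Cct4 and Cct6a came last, with no value above 0.74 FPKM in any WT library, and neighbours among these 3 overlapped. Against the 6398 genes that reached 1 FPKM in at least 1 library, the WT mean of Cct3 was higher than that of 80.2%, and that of Cct4 was higher than that of 4.16%. The 8 mRNAs of a complex with equal numbers of each subunit therefore did not have equal FPKM in these libraries. Protein was not measured here.

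In Lsm14b-KO FGOs the order of the 5 highest members was the same. Cct3 stood at 51.4 ± 5.97 FPKM and Cct8 at 15.0 ± 1.47 FPKM (SD, n = 3), again without overlap. Cct5 at 9.20 ± 2.99, Tcp1 at 7.81 ± 2.09 and Cct2 at 5.93 ± 1.60 FPKM (SD, n = 3 each) overlapped with their neighbours in that order. Cct4 stood above Cct7 without overlap, and Cct7 and Cct6a overlapped.

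**Figure D1:**
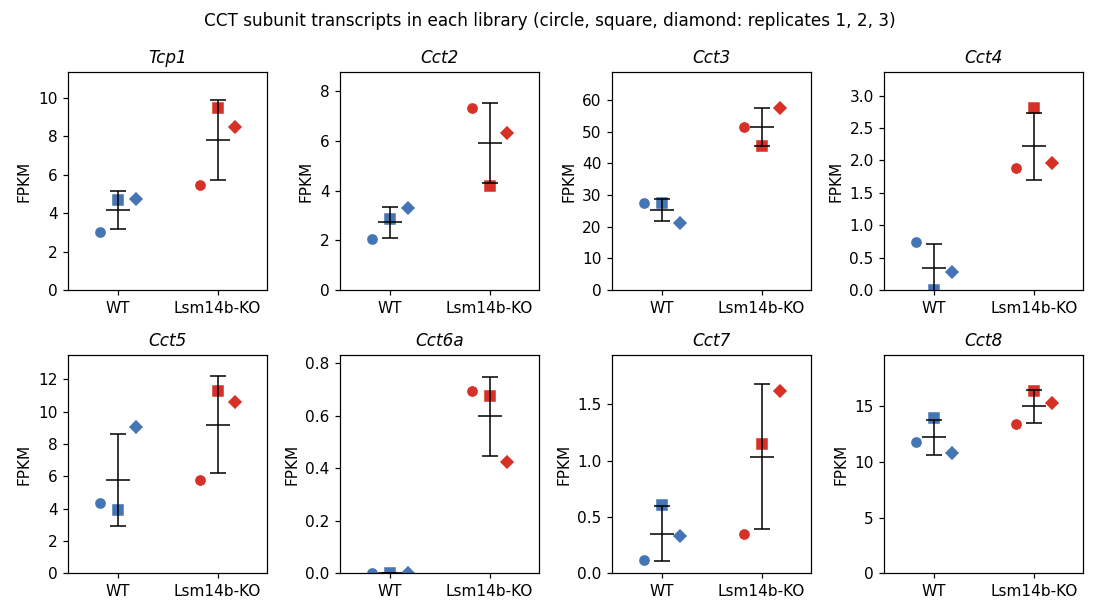
FPKM (vertical axes, each starting at 0 with its own scale) of the 8 CCT subunit genes in the 3 WT (blue) and 3 Lsm14b-KO (red) libraries, with a mark shape per replicate and black bars for the mean and SD. All 3 Lsm14b-KO libraries lie above all 3 WT libraries for Tcp1, Cct2, Cct3, Cct4 and Cct6a, and the groups overlap for Cct5, Cct7 and Cct8.

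Cct3 and Cct2 were called higher in Lsm14b-KO FGOs, at 2.03 and 2.17 times their WT means, and no tested member was called lower. Cct4 was called higher too. It entered the test only through Lsm14b-KO libraries, so its call is a description and no support for a difference. Tcp1, Cct5, Cct7 and Cct8 had higher means in Lsm14b-KO that did not pass the test, and Cct6a was listed above 0 only in Lsm14b-KO libraries. The question put to each member was whether its transcript level differed between Lsm14b-KO and WT FGOs by more than the libraries of a genotype differed among themselves. All genes that reached 1 FPKM in some library were compared by limma on log2(FPKM + 1), with p-values adjusted over all 6398 genes. This test took 7 of the 8 members, and Cct6a did not reach 1 FPKM in any library. A fold change on this scale understates that of genes near 1 FPKM. A gene was called at an adjusted p under 0.05. The count of 3 called higher of 7 stands beside a background of 6.38% of all tested genes called higher, 15.2% called lower and 21.6% called in either direction. Cct4 and Cct7 passed the minimum of 1 FPKM only through Lsm14b-KO libraries, so these counts over the tested members are not counts over all members. Leaving out WT replicate 2, WT replicate 3 or Lsm14b-KO replicate 3 left 0 of 7 called by limma, with 4, 5 and 3 at an unadjusted p under 0.05. Over all genes these fits called 66 of 6282, 98 of 6284 and 38 of 6338 higher. In either direction, 1879, 2030 and 1794 of all genes had an unadjusted p under 0.05. Leaving out WT replicate 1 left 1 (Cct4), beside 68 of 6280 genes called higher. Leaving out Lsm14b-KO replicate 2 left the 3 named, beside 208 of 6182. Nothing in the labels says that the 3 libraries of a genotype came from separate animals, so the p-values measure the spread between these libraries, which may be technical. In bulk RNA, fewer cells with a transcript and less of it per cell cannot be told apart.

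Cct3, the gamma subunit, had 27.3, 27.4 and 21.3 FPKM in the WT libraries. Its Lsm14b-KO values were 51.3, 45.4 and 57.4 FPKM. The groups lay apart by more than the whole range of either, and the ratio of the means was 2.03. The log2 fold change was 1.00 with an SE of 0.27 (adjusted p = 0.0350). At its level the libraries held about 157 to 224 fragments of it in WT and about 489 to 887 in Lsm14b-KO, so it was by far the most deeply counted member.

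Cct2, the beta subunit, had 2.07, 2.84 and 3.29 FPKM in the WT libraries. Its Lsm14b-KO values were 7.32, 4.17 and 6.30 FPKM. The groups did not overlap, but the Lsm14b-KO libraries ranged widely, with replicate 1 highest and replicate 2 lowest. Its log2 fold change of 0.88 (SE 0.25) passed with an adjusted p of 0.0445, close to the threshold of 0.05, with a ratio of the means of 2.17.

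Cct4, the delta subunit, read 0.74, 0 and 0.29 FPKM in the WT libraries. Its Lsm14b-KO values were 1.88, 2.80 and 1.96 FPKM. The groups did not overlap, and the WT values correspond to only about 6.6, 0 and 2.7 fragments, against about 22.5, 49.3 and 38.2 in Lsm14b-KO libraries. The log2 fold change on the scale used was 1.29 (SE 0.25, adjusted p = 0.0137), the highest of the 7, and no ratio of means is given because 1 WT library was at 0. Every WT value lay under the minimum of 1 FPKM, so Cct4 was tested only through its Lsm14b-KO libraries. This call is therefore a description and no support for a difference.

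Tcp1, the alpha subunit and the one that gave the complex its first name, had 3.05, 4.71 and 4.77 FPKM in the WT libraries. Its Lsm14b-KO values were 5.45, 9.47 and 8.50 FPKM. The groups did not overlap, with Lsm14b-KO replicate 1 only just above the highest WT library. The log2 fold change of 0.76 (SE 0.27, 95% interval 0.13 to 1.38) did not pass the adjustment (adjusted p = 0.0810).

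Cct5, the epsilon subunit, had 4.35, 3.94 and 9.06 FPKM in the WT libraries. In Lsm14b-KO it had 5.77, 11.3 and 10.6 FPKM. WT replicate 3 lay among the Lsm14b-KO values and Lsm14b-KO replicate 1 among the WT values, so the groups overlapped. A log2 fold change of 0.62 was fitted (SE 0.36, adjusted p = 0.228), and its 95% interval of -0.21 to 1.45 holds both no difference and a difference larger than that of Cct3.

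Cct8, the theta subunit, had 11.8, 13.9 and 10.8 FPKM in the WT libraries. The Lsm14b-KO libraries gave 13.4, 16.3 and 15.2 FPKM. The groups overlapped through WT replicate 2 and Lsm14b-KO replicate 1, at levels of about 96.9 to 138 fragments in WT and 154 to 286 in Lsm14b-KO libraries. Its fitted log2 fold change was 0.28 (SE 0.24, 95% interval -0.26 to 0.83, adjusted p = 0.385), the lowest of the 7.

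Cct7, the eta subunit, had 0.12, 0.60 and 0.33 FPKM in the WT libraries. Its Lsm14b-KO values were 0.35, 1.15 and 1.61 FPKM. Lsm14b-KO replicate 1 lay within the WT range, and the WT values correspond to only about 1.0 to 6.1 fragments. The log2 fold change was 0.55 (SE 0.29, 95% interval -0.11 to 1.22, adjusted p = 0.187).

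Cct6a, the zeta subunit that most tissues use, was listed at 0 in all 3 WT libraries whereas its Lsm14b-KO values were 0.69, 0.68 and 0.42 FPKM. The Lsm14b-KO values correspond to about 8.2, 11.7 and 8.1 fragments. A single fragment of Cct6a would have read as about 0.11, 0.099 and 0.11 FPKM in the WT libraries, below each Lsm14b-KO value. A listed 0 can also be an estimate that failed. Over all genes, 10305, 10553 and 10346 were listed above 0 in WT libraries and 10926, 11597 and 11733 in Lsm14b-KO libraries. When every gene above 0 in at least 1 library was tested, Cct6a was called (log2 fold change 0.67, SE 0.11, adjusted p = 0.0208) together with Cct4, while Cct2 and Cct3 were not, with 1.24% of 14325 genes called higher. Cct6a entered that fit only through the libraries where it is high, against a group listed at 0, so this call is a description and no support for a difference.

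Over the 7 tested members the fitted log2 fold changes ran from 0.28 to 1.29, with a median of 0.76 against -0.08 over all tested genes. All 7 were above 0, as were 46.8% of all tested genes. Of the 7, 4 had all Lsm14b-KO libraries above all WT libraries (Tcp1, Cct2, Cct3 and Cct4), as did 19.1% of all tested genes. Cct4 and Cct7 were among the 7 only through Lsm14b-KO libraries. The median difference of the 7 members from their WT mean was 0.34, 0.83 and 0.97 (log2) in Lsm14b-KO replicates 1, 2 and 3. Over all tested genes it was -0.037, -0.14 and -0.069. For the members in WT replicates 1, 2 and 3 it was -0.26, 0.12 and -0.0038. Each WT library is part of the mean it is set against, which draws these WT values toward 0. Lsm14b-KO replicate 1 stood nearest to WT, and it was the lowest of its group in 5 of the 8 members. It was also the Lsm14b-KO library with the least estimated depth and with the FPKM sum nearest to WT, and the part of depth and scale in the members' values was not tested. Without Lsm14b-KO replicate 1, 6 of the 7 members were called higher, all but Cct8, beside 18.3% of tested genes.

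Scaling the libraries differently moved the median of all tested genes, and under some scalings that of the members. With every library brought to the same FPKM sum, the median of all tested genes was 0.40 (log2), a shift of more than 0.1, and that of the members was 1.35, so the members stood 0.96 above the others, against 0.83 with FPKM as deposited. Under that scaling 833 genes were called higher and 486 lower, in place of 408 and 975, and the same 3 members were called beside 13% of genes called higher. With quantile normalization the members stood 0.87 above the median of all genes, with 540 genes higher and 735 lower and 3 members called beside 8.44% of genes called higher. After a correction for transcript length and GC content the median of all genes moved to 0.07 while that of the members remained at 0.76, so they stood 0.69 above it, with 573 genes higher and 819 lower, and 3 members were called beside 9.07% of genes called higher. The members have annotated transcripts of 1853 to 2484 nt, around the median of 2258.5 nt over the tested genes. Cct8 was not called under any of these, and Cct2, Cct3 and Cct4 were called under each.

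**Figure D2:**
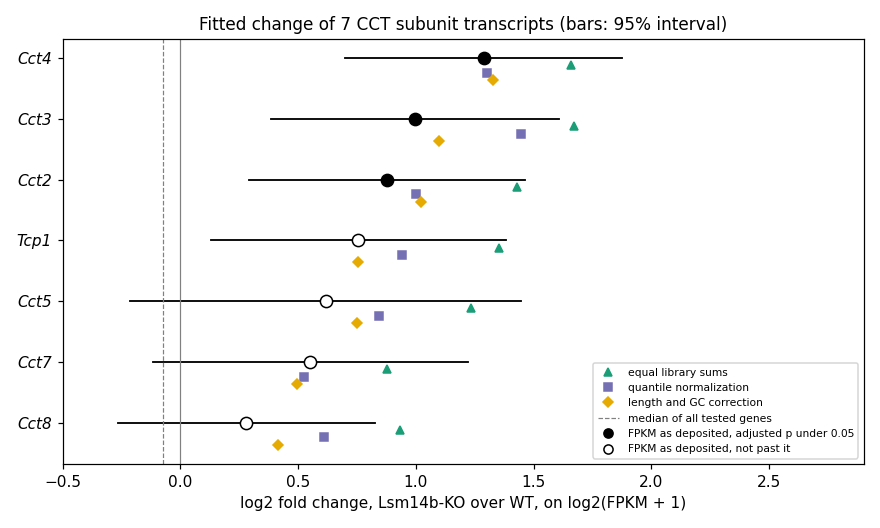
Fitted log2 fold change (horizontal axis, Lsm14b-KO over WT) of the 7 tested CCT subunit genes, as black circles with 95% intervals (filled where the adjusted p was under 0.05), and under 3 other scalings as coloured marks. All marks lie above 0, and the black circles run from Cct8 at 0.28 to Cct4 at 1.29. The dashed line at -0.08 is the median of all tested genes with FPKM as deposited only. That median was 0.40 with equal FPKM sums, 0.07 with quantile normalization and 0.07 with the length and GC correction, which are not drawn.

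Summed over the 8 genes, CCT transcripts amounted to 49.5, 53.4 and 49.8 FPKM in WT. In Lsm14b-KO the sum was 86.2, 91.2 and 102 FPKM. Every Lsm14b-KO library lay above every WT library by more than the range within either group. The means were 50.9 ± 2.18 and 93.1 ± 8.08 FPKM (SD, n = 3), a ratio of 1.83, with an exact permutation p of 0.1 (two-sided), the smallest that 3 against 3 libraries allow. With equal FPKM sums the scaled values were 38.6, 44.3 and 42.4 in WT and 81.3, 157 and 146 in Lsm14b-KO. Their means were 41.8 ± 2.88 and 128 ± 41.0 (SD, n = 3), a ratio of 3.07 (exact permutation p = 0.1). Lsm14b-KO replicate 1 lay much nearer to WT than replicates 2 and 3. Cct3 made up more of the sum than any other member in each library, so the sum is largely a reading of Cct3 and Cct8.

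Shares within the sum do not depend on the scale of a library. The share of Cct8 was 23.9, 26.1 and 21.7% in WT. Lsm14b-KO libraries had 15.5, 17.9 and 15.0%. All Lsm14b-KO shares lay below all WT shares, with means of 23.9 ± 2.18% and 16.1 ± 1.54% (SD, n = 3) that differed by -7.76 points (exact permutation p = 0.1, adjusted over the 8 shares 0.267). Cct8 thus had the lower part of a larger pool in every Lsm14b-KO library, and its own FPKM was not shown to differ.

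Cct4 went from shares of 1.49, 0 and 0.57% in WT to 2.18, 3.07 and 1.92% in Lsm14b-KO, without overlap (exact permutation p = 0.1, adjusted 0.267). Cct6a, listed at 0 in WT, had 0.80, 0.74 and 0.42% in Lsm14b-KO replicates 1, 2 and 3. The share of Cct3 averaged 49.7 ± 6.43% in WT and 55.2 ± 4.97% in Lsm14b-KO (SD, n = 3), with overlapping groups (exact permutation p = 0.4), and the difference of 5.46 points ranged from 1.93 without WT replicate 3 to 8.22 without WT replicate 1. The shares of Tcp1, Cct2, Cct5 and Cct7 differed by -1.66 to 1.04 points, with overlapping groups and exact permutation p-values of 0.4 to 0.9. That of Cct2, 1.04 points, was 0.00563 without Lsm14b-KO replicate 1 and 1.96 without Lsm14b-KO replicate 2, and that of Cct7, 0.40 points, was 0.15 without Lsm14b-KO replicate 3 and 0.74 without Lsm14b-KO replicate 1. With 3 libraries a group, no share can give an exact p below 0.1.

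**Figure D3:**
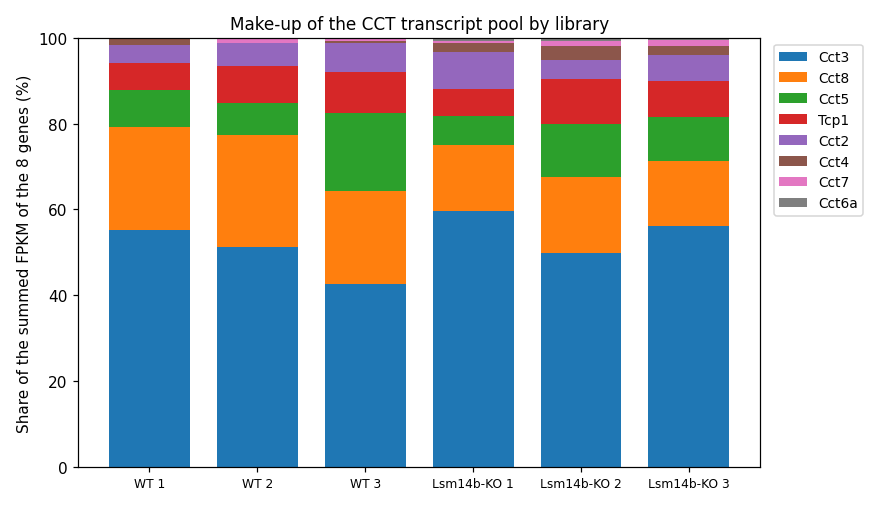
Share of each subunit gene in the summed FPKM of the 8 CCT genes (vertical axis, percent, bars from 0 to 100) in each of the 6 libraries. The orange Cct8 part runs from 21.7 to 26.1% in WT and from 15.0 to 17.9% in Lsm14b-KO libraries, while the blue Cct3 part overlaps between the genotypes.

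Several members share their locus with other genes, which matters because the strand setting of these libraries is not given and reads of overlapping genes then cannot be told apart. On GRCm38 (GENCODE vM21), Cct2 lies at chr10:117051001-117063814, Cct3 at chr3:88297116-88321767, Cct4 at chr11:22990519-23003780 and Cct5 at chr15:31590800-31601804, and no other annotated gene overlaps these 4. Tcp1 at chr17:12915701-12925067, on the plus strand, overlaps Mrpl18, a mitochondrial ribosomal protein gene on the other strand. Mrpl18 had 152, 157 and 151 FPKM in WT and 65.3, 38.4 and 51.9 FPKM in Lsm14b-KO (log2 fold change -1.58, adjusted p = 0.0122). The fall of Mrpl18 runs opposite to the values of Tcp1, and Mrpl18 stood above Tcp1 in every library, so reads given to the wrong one of the pair could not be told from those of Tcp1.

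Cct8 at chr16:87483326-87495873, on the minus strand, overlaps Usp16, a histone deubiquitinase gene, which had 1.90, 1.85 and 4.08 FPKM in WT and 2.56, 5.25 and 6.69 FPKM in Lsm14b-KO (adjusted p = 0.186). Cct7 at chr6:85451514-85468475, on the plus strand, overlaps Pradc1, which had 33.6, 36.4 and 46.2 FPKM in WT and 36.9, 15.6 and 25.5 FPKM in Lsm14b-KO (adjusted p = 0.220). Cct6a at chr5:129786998-129846371 overlaps Psph, which stayed under 1 FPKM in every library. Transcript stretches at least 95% identical over at least 200 nt were found between Tcp1 and both Acat2 and Acat3. They were also found between Cct6a and Psph, and between Cct7 and both Pradc1 and the processed pseudogene Gm5380. Of these, Acat3, Psph and Pradc1 overlap the member's own locus, so they are not separate copies. The values of these 3 members are uncertain where reads could be split. No such copy was found for Cct2, Cct3, Cct4, Cct5 and Cct8.

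The genes that work with CCT were counted from lists of its co-chaperones and clients. Of the prefoldin subunits, which carry unfolded actin and tubulin to CCT, 6 of 6 were tested, 2 fell and none rose, beside 15.2% of all tested genes called lower and 6.38% called higher, with a median log2 fold change of -1.13 against -0.08 over all tested genes. Pfdn4 had 6406, 5991 and 4780 FPKM in WT and 331, 49.8 and 75.8 FPKM in Lsm14b-KO (log2 fold change -5.71, adjusted p = 0.00202). Pfdn6 had 85.6, 103 and 73.8 FPKM in WT and 53.0, 17.4 and 35.3 FPKM in Lsm14b-KO (-1.41, adjusted p = 0.0475). Neither pair of groups overlapped.

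The annotated transcripts of the prefoldin genes were short, 807 to 1735 nt, against 1853 to 2484 nt for the tested CCT members. Pfdn4 kept its call under all 3 other scalings (log2 fold changes of -4.91 to -5.05) and with any 1 library left out, whereas Pfdn6 lost it under each scaling and in 5 of 6 fits with 1 library left out, all but that without Lsm14b-KO replicate 1, and with equal FPKM sums 1 prefoldin gene was called higher and 1 lower, beside 13% and 7.6% of all genes. Without Lsm14b-KO replicate 1, 4 were called lower, beside 28.7% of all genes. The part of transcript length in the difference between prefoldin and CCT genes was not tested, and the difference between the lists was not tested either.

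Of the phosducin-like co-chaperones, which bind CCT and modulate its folding cycle, 3 of 4 were tested and 1 fell, beside 15.2% of all tested genes. Pdcl3 had 67.0, 56.3 and 60.9 FPKM in WT and 4.99, 2.97 and 3.93 FPKM in Lsm14b-KO (log2 fold change -3.67, adjusted p = 0.000544). The groups lay far apart, and the call held under all scalings and without any 1 library. Of the genes related to CCT in sequence, only Mkks, which belongs to a chaperonin-like group of Bardet-Biedl syndrome genes, was tested, and it fell from 61.6, 60.8 and 48.9 FPKM in WT to 23.6, 7.07 and 10.1 FPKM in Lsm14b-KO (log2 fold change -2.15, adjusted p = 0.0132). Its call was lost without WT replicate 1, WT replicate 2 or Lsm14b-KO replicate 3 (highest adjusted p 0.0702). Cct6b, the zeta subunit gene known from testis, was at 0 in all WT libraries and at most 0.24 FPKM in Lsm14b-KO.

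Of the HSP70 and HSP90 side of folding, 8 of 11 genes were tested, 2 rose and none fell, beside 6.38% of all tested genes called higher and 15.2% called lower, with a median log2 fold change of 1.06. Hsph1, an HSP110 nucleotide exchange factor of HSP70, had 5.08, 4.93 and 5.16 FPKM in WT and 46.9, 40.5 and 50.0 FPKM in Lsm14b-KO (2.95, adjusted p = 0.000742). Hspa8, the constitutive HSP70, had 6.85, 9.82 and 16.8 FPKM in WT and 28.1, 155 and 106 FPKM in Lsm14b-KO (2.77, adjusted p = 0.0204). Both were apart between the groups, Hsph1 evenly and Hspa8 with Lsm14b-KO replicate 1 much nearer to WT than the other two. With 1 library left out Hsph1 was always called, and Hspa8 was not without WT replicate 1, WT replicate 2 or Lsm14b-KO replicate 3 (highest adjusted p 0.0919). With equal FPKM sums, quantile normalization and the length and GC correction 4 of the 8 were called higher in each, beside 13%, 8.44% and 9.07% of all genes. Hsf1, the heat shock transcription factor, did not reach 1 FPKM in any library, at 0.50 to 0.97 FPKM in WT and 0.26 to 0.66 FPKM in Lsm14b-KO. In the mitochondrial chaperonin list, which holds the HSP60 ring and its partners, 3 of 4 genes were tested and limma called none, with 2 at an unadjusted p under 0.05 and a median of 0.55. With equal FPKM sums 1 of them was called higher, beside 13% of all genes, and without Lsm14b-KO replicate 1, 2 were, beside 18.3%.

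Of the actin and tubulin genes, whose products are the main clients, 14 of 17 were tested, 4 rose and none fell, beside 6.38% of all tested genes called higher and 15.2% called lower, with a median log2 fold change of 1.19. Actb, beta-actin, had 23.9, 20.2 and 28.1 FPKM in WT and 40.0, 163 and 125 FPKM in Lsm14b-KO (1.93, adjusted p = 0.0338). Tubb5, a beta-tubulin, had 3.39, 4.18 and 5.55 FPKM in WT and 8.44, 34.5 and 20.0 FPKM in Lsm14b-KO (1.85, adjusted p = 0.0278). Actg1, gamma-actin, had 1.86, 1.08 and 2.25 FPKM in WT and 3.02, 15.0 and 7.10 FPKM in Lsm14b-KO (1.58, adjusted p = 0.0462). In each of these, Lsm14b-KO replicate 1 lay closest to WT. Tuba1a, an alpha-tubulin and the remaining call, had 25.2, 26.8 and 56.4 FPKM in WT and 63.7, 137 and 85.8 FPKM in Lsm14b-KO (log2 fold change 1.41, adjusted p = 0.0494). Actins and tubulins have near-identical family members, so their values are uncertain where reads could be split between them. With equal FPKM sums 9 of the 14 were called higher, beside 13% of all genes, and with quantile normalization and the length and GC correction 8 each, beside 8.44% and 9.07%. Without Lsm14b-KO replicate 1, 12 were called higher, beside 18.3% of all genes. Leaving out any WT library or Lsm14b-KO replicate 3 ended each of the 4 calls, and leaving out Lsm14b-KO replicate 2 all but that of Tubb5 (highest adjusted p 0.174).

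Of the tubulin cofactors, which take tubulin on from CCT to the dimer, 4 of 6 were tested and limma called none, with 1 at an unadjusted p under 0.05, and a median of -0.51 that turned to 0.15, 0.10 and 0.06 with equal FPKM sums, quantile normalization and the length and GC correction. Without Lsm14b-KO replicate 1 the median was -0.56 and 1 cofactor was called lower (Tbca, named after its values were seen, log2 fold change -1.46, adjusted p = 0.00616), beside 28.7% of all genes. Of the WD40 and cell cycle clients, 6 of 14 were tested and limma called none, with 2 at an unadjusted p under 0.05 and a median of 0.22. Without Lsm14b-KO replicate 1, 2 of the 6 were called higher, beside 18.3% of all genes. Cdc20 had 0.66, 1.30 and 0.64 FPKM in WT and 0.50, 0.43 and 0.15 FPKM in Lsm14b-KO (log2 fold change -0.45, adjusted p = 0.173). Its groups did not overlap, but all values lay near or below 1 FPKM.

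**Figure D4:**
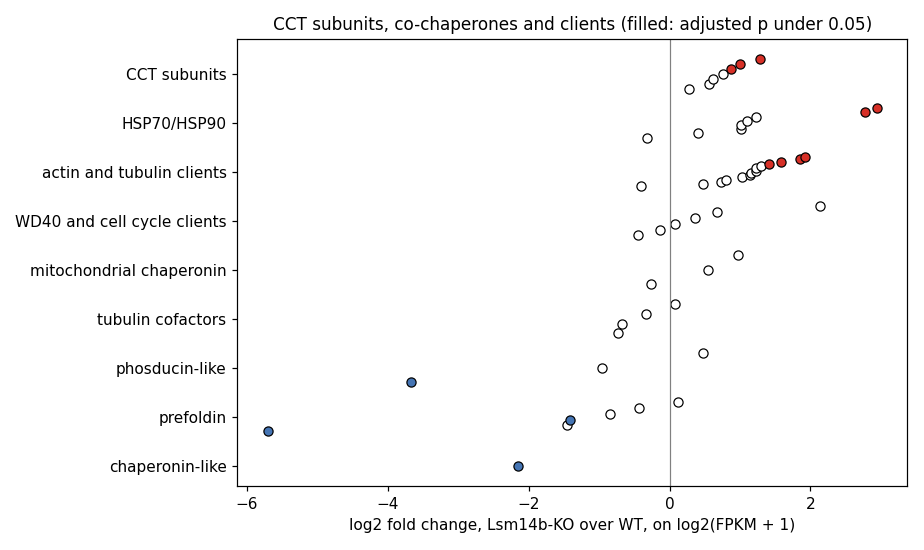
Fitted log2 fold change (horizontal axis, Lsm14b-KO over WT) of each tested gene of CCT and of 8 lists of related chaperones, cofactors and clients, 1 circle per gene, filled red or blue where the adjusted p was under 0.05. Called genes lie above 0 among CCT subunits, the HSP70 and HSP90 list and actins and tubulins, and below 0 among the phosducin-like, prefoldin and chaperonin-like lists, down to Pfdn4 at -5.71.

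The genes whose levels ran most like those of the CCT members were sought among 2556 non-member genes with a mean of at least 5 FPKM, by Pearson's r over the 6 libraries with the members' mean log2(FPKM + 1). In that number of genes, 187 had r above 0.9, and the 6 points share their libraries, depth and genotype. The highest was Pramef12, a gene of the PRAME family, with 12.1, 13.4 and 14.6 FPKM in WT and 25.6, 31.1 and 31.6 FPKM in Lsm14b-KO (r = 0.998). It was followed by Mllt3, a chromatin reader of the super elongation complex (r = 0.995), Serpini1, a serine protease inhibitor (r = 0.995), Gnas, the stimulatory G protein alpha subunit (r = 0.994), and Ormdl1, a regulator of sphingolipid synthesis (r = 0.992). These correlations describe the 6 libraries and carry no test.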

How the data were processed

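FPKM of 6 RNA-Seq libraries were analysed, 3 WT and 3 Lsm14b-KO, grouped and numbered by their titles. The authors aligned trimmed reads to mm10 with TopHat2 2.0.13 and computed FPKM with Cufflinks 2.2.1. Cuffnorm is also named, without a version, and whether the values were further scaled between libraries was not tested. The annotation is not given in the sources used here, the library kit is named differently in 2 label fields, and strandedness is not given. The deposited FPKM table also holds the log2 ratio, p-value and q-value of the authors' cuffdiff comparison, 3 columns that were not used. FPKM depend on library composition and on the transcript length assumed.

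Genes reaching 1 FPKM in any library were tested on log2(FPKM + 1) with limma 3.58.1 in R 4.3.3 (lmFit, eBayes with intensity trend, genotype only, two-sided, Benjamini-Hochberg over 6398 genes). With FPKM only, no count test could be run. Shares and sums were compared by exact permutation over the 6 libraries. Fragment numbers were estimated from the step between the lowest FPKM values and from GENCODE vM21 transcript lengths, and are approximate. Copies were sought with blastn 2.17.0. Lengths and GC content were found for 6318 tested genes (98.75%). The fits were tested on simulated data.

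The members and lists were chosen with earlier results of these data known. From each list, up to 3 called genes per direction with the largest log2 fold change and a mean of at least 5 FPKM are named, with Cdc20, Actb and Actg1 always given; Cct6b, Hsf1, Tuba1a and the genes overlapping members were added after their values were seen. Alternatives were other pseudocounts, filters and scalings, a length and GC correction, a fit without intensity trend, the replicate number as a block, and each library left out. WT replicate numbers do not pair with those of Lsm14b-KO.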

Additional observations from a re-analysis of the deposited data

Results flagged for a closer look

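Cct6a was left out of the test by its low level, yet it was listed at 0 in all 3 WT libraries and at a mean of 0.598 FPKM in the Lsm14b-KO libraries, above the controls in 3 of 3. It was noted because this signal lies outside the main measurement. The values correspond to about 8.1 to 11.7 fragments per Lsm14b-KO library, and the Lsm14b-KO libraries were the deeper ones by the estimate used here. They also listed more genes above 0, with 10926, 11597 and 11733 against 10305, 10553 and 10346 in WT. How many genes share the pattern of Cct6a was not counted. The part of depth in the difference of Cct6a was not tested. Groups of 3 libraries are too small for a test of single outlying libraries.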

How the results depend on the processing

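Every tested member had a fitted log2 fold change above 0 in each alternative that could be run (15 or 16 per member), and their median stayed between 0.59 and 1.35, the latter with equal FPKM sums. Which members passed the threshold was less stable. The main count of 3 (Cct2, Cct3 and Cct4) stood beside 408 of 6398 genes called higher. It became 1 with a pseudocount of 0.01 (Cct3), beside 307 of 6398 genes called higher. With a mean of at least 5 FPKM it was 1 (Cct3, with 4 members tested), beside 179 of 2560. Without the intensity trend it was 2 (Cct3 and Cct4), beside 347 of 6398, with Cct2 just over the threshold (limma, adjusted p = 0.0501). With 1 library left out it ranged from 0 to 6. It was 0 without WT replicate 2, WT replicate 3 or Lsm14b-KO replicate 3, and 1 without WT replicate 1 (Cct4). It was 3 without Lsm14b-KO replicate 2 and 6 without Lsm14b-KO replicate 1. Those fits called from 38 (without Lsm14b-KO replicate 3) to 1152 genes higher (without Lsm14b-KO replicate 1). Over all genes, 1383 calls became 720 without the filter on low values and 862 with a mean of at least 5 FPKM, and 321 to 2952 with 1 library left out, lowest without Lsm14b-KO replicate 3 and highest without Lsm14b-KO replicate 1. The share of Tcp1, which differed by 0.16 points, ranged from -0.855 (without Lsm14b-KO replicate 2; -0.853 without WT replicate 1) to 1.17 with 1 library left out, and was -0.467 after the length and GC correction. The share of Cct5, at -1.66 points, ranged from -3.70 to 1.70 with 1 library left out, the latter without WT replicate 3. The cause was not tested, beyond fewer samples where a library was left out and fewer genes tested where the filter was stricter.

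With the replicate number as a block, 1 member was called (Cct4), beside 1244 genes in all, 353 of them higher. With the block and the length and GC correction 3 members were called, beside 1297 genes in all, 541 of them higher. Libraries of the same number did not deviate together (r of 0.19, -0.13 and 0.018 for replicates 1, 2 and 3), and not every library correlated best with its own number, so the numbers are not read as pairs.

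Depth limits Cct4, Cct6a and Cct7 most, since WT libraries held about 0 to 6.6 fragments of each, and with 3 libraries a group no exact permutation test of a share or sum can go below p = 0.1.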
